A study of Mus musculus with 2 samples.

Results

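The genes described here make and remove prostaglandins in mouse embryonic fibroblasts. They are Ptgs1 and Ptgs2, the cyclooxygenases, Ptges and Ptgis, synthases of end products, and Hpgd, the enzyme that starts prostaglandin breakdown. These 5 genes were chosen by name, with their differences between the 2 arrays already known, so their ratios are a description and are given without a test. They have 6 of the 24044 probes, found through the NCBI gene number in the probe identifier, and are 5 of 7413 genes named that way. All 5 genes were detected on at least 1 array, as were 3007 of all named genes, and 3 of them were detected on both.

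The cells were fibroblasts of the NMRI outbred mouse stock, which both groups share. Mitomycin C, which crosslinks DNA, had been used to halt their division. They were replated on a gelatine coat at a density of 55000 per square centimetre and moved a day later to basic medium for human embryonic stem cells with serum replacement. The control culture had that medium without FGF2 for 24 h, and the other had it with 40 ng/ml of FGF2, a fibroblast growth factor, for the same time. Each was measured once, as total RNA on 1 Illumina bead array, so that FGF2 and anything else that set the cultures apart cannot be told apart. The labels used here state neither the age of the embryos nor how many were pooled. Less RNA per cell and fewer cells of a type also cannot be told apart in such bulk samples.

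Cyclooxygenases oxidise arachidonic acid, which phospholipases release from membranes, to prostaglandin H2, the common precursor. Separate synthases turn this precursor into end products, such as prostaglandin E2, made by Ptges, and prostacyclin, made by Ptgis. Prostaglandins leave the cell, act on G protein-coupled receptors, and are inactivated inside cells after uptake, with oxidation by the Hpgd enzyme as the first step. Fibroblasts are a known source of prostaglandin E2, and Ptgs2 is the cyclooxygenase gene best known for induction by growth factors and cytokines, while Ptgs1 is often described as constitutive.

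The windows around the gene starts are shown because several of these genes were higher with FGF2 together and 1 was lower, and because the elements they hold differ. RefSeq (GRCm38.p6) gives a window of 300 bases, 250 before and 50 after the start, for 4 of the 5 genes. Ptgis has no entry in that table. Capitals mark matches, on either strand, to the TATA box with letters TATAAA, and to TGACG (the shared core of cAMP response elements), CACGTG (E-box), TGANTCA (AP-1), GGGCGG (GC box), CCGGAAG (ETS) or CCAAT (box bound by NF-Y).
Ptgs1, chr2:36230176-36230475, plus strand: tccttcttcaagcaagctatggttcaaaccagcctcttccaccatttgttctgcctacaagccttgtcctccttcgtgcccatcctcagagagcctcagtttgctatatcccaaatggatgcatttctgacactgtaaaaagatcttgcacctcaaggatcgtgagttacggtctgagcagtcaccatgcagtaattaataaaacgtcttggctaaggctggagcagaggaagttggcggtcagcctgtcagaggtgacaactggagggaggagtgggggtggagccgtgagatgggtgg
Ptgs2, chr1:150099781-150100080, plus strand: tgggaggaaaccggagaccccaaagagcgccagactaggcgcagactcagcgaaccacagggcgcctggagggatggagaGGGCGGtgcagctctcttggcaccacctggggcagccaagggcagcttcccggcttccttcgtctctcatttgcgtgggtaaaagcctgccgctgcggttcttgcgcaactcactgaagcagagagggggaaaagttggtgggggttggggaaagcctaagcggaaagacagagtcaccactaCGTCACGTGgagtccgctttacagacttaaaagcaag
Ptges, chr2:30903248-30903547, minus strand: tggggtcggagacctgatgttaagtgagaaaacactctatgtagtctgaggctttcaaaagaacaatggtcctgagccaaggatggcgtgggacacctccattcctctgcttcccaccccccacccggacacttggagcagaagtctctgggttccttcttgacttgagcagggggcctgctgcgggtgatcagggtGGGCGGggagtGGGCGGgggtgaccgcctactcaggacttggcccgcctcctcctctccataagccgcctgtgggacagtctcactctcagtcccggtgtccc
Hpgd, chr8:56294302-56294601, plus strand: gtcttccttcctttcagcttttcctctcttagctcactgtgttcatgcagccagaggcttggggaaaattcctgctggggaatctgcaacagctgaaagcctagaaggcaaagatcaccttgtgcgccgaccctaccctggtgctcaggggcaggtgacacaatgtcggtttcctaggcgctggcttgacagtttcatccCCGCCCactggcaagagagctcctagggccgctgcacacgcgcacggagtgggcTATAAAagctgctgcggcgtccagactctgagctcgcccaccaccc

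The windows of both cyclooxygenase genes had no motif in common. The Ptgs1 window held none of the 7 motifs. The Ptgs2 window held a cAMP response core at bases 264 to 268 of the printed window and an E-box at bases 267 to 272, which overlap by 2 bases, and a GC box at bases 81 to 86. The core occurs in 20.8% and the E-box in 7.15% of the 32851 RefSeq windows of this length. The Ptges window held a pair of GC boxes, at bases 198 to 203 and 209 to 214, a feature of the mouse gene that has been studied as a binding place of Egr1. At least 1 GC box occurs in 35.7% of windows, and the Hpgd window also has one, at bases 201 to 206, beside a TATA box at bases 255 to 260, a motif found in 13.6%. Guanine and cytosine made up 50.7% of the Ptgs1 window, 59.3% of the Ptgs2 window, 60% of the Ptges window and 58.0% of the Hpgd window, against a mean of 53.8% over all windows. Since the first 250 bases of a window precede the annotated start, the Hpgd TATA match and the Ptgs2 core and E-box lie after it. The GC boxes lie before it. These matches are descriptions of letters in a window and were not set against binding data. Whether transcription began at the annotated starts in these cells was not tested.

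On the control array 7599 probes (31.6%) were detected, meaning a detection score of at least 0.99, and 7424 (30.9%) on the FGF2 array. The lowest detected signals were 194.6 and 184.9. The fibroblast identity of the cells was checked on 12 markers. Named probes exist for 6 of them, and all 6 were detected on both arrays, among them Col1a1, Dcn and S100a4. Of all 7413 named genes, 2641 were detected on both arrays. With FGF2, 4 of the 6 fibroblast markers were at least 2-fold lower (Col1a1, Col1a2, Col3a1 and Fbln1), where 2.59% of the 3007 detected named genes were. Mast cells and platelets are known for high Ptgs1. Of their markers, 3 mast cell genes (Cma1, Fcer1a and Mcpt4) and 1 platelet gene (Itga2b) have a named probe, and none was detected. The array names probes for 6 macrophage and leukocyte markers. Detected were Lyz2 and Cd53, whereas Ptprc, Csf1r, Cd68 and Itgam were not detected on either array. Lyz2 was at 374.8 in control and 220.2 with FGF2 on its brighter probe. Its dimmer probe, at 150.5 and 148.8, was not detected. Cd53, at 176.7 and 318.7, was detected with FGF2 only and at least 1.82-fold higher there. The summed signal of the 6 markers, on the brightest probe of each, was 1109.3 in control and 1014.4 with FGF2. These sums include the background signal of the 4 undetected markers. Neither endothelial marker with a named probe, Pecam1 and Emcn, was detected. Of epithelial markers, Cldn4 gave 202.4 and 187.0, and neither probe of Krt8 was detected on either array. Krt18, at 191.1 and 268.5, was detected with FGF2 only, at least 1.52-fold higher there. Its control score of 0.987 was just under 0.99. The part of Lyz2, Cd53 and Krt18 in the results below was not tested.

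Ptgs1, which encodes cyclooxygenase 1, gave a signal of 207.7 ± 7.9 (bead SD) in the control culture and 949.8 ± 47.2 with FGF2. The control signal lay only 13.1 units above the lowest detected signal of that array, and the FGF2 signal 764.9 units above that of its own. After quantile normalization the ratio was 5.24-fold, a log2 ratio of 2.39 ± 0.090, which placed Ptgs1 as the fifth highest of 3007 detected named genes. With FGF2 this gene moved from the edge of detection to a clearly measured signal. Because the control side is so close to background, the fold depends on how background is treated. In the authors' deposited table, which has background subtracted, Ptgs1 was 72.3 in control and 1044 with FGF2, a fold of 14.4.

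Ptgs2, which encodes the inducible cyclooxygenase 2, was not well above background in control. Its brighter probe (scl0019225.1_61-S) gave 145.9 ± 4.9 in control, with a detection score of 0.758, and 283.6 ± 12.2 with FGF2, with a score of 1. Against the floor of the control array the gene was at least 1.61-fold higher with FGF2 (log2 ratio of at least 0.69 ± 0.079). That error combines the bead SDs of both deposited signals, although the floor replaced the control signal in the bound. The other Ptgs2 probe (scl019225.10_46-S) was not well above background on either array, at 121.1 ± 5.9 and 111.0 ± 4.5, so the increase rests on 1 of 2 probes. The dimmer probe gives no ratio.

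Ptges encodes microsomal prostaglandin E synthase 1, the glutathione-dependent enzyme that is induced together with Ptgs2 in many inflamed tissues. It gave 224.2 ± 11.7 in control, 29.6 units above the lowest detected signal, and 726.6 ± 23.4 with FGF2. The ratio was 3.73-fold (1.90 ± 0.088), the eighth highest of the detected named genes. Here too the control culture was near the edge of detection and the FGF2 culture was not. In the authors' deposited table the values were 88.8 and 759, a fold of 8.55.

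Ptgis encodes prostacyclin synthase, a cytochrome P450 enzyme best known from endothelium and smooth muscle. It was clearly detected in both cultures, at 434.6 ± 16.1 in control and 784.6 ± 34.0 with FGF2. The ratio was 2.16-fold (1.11 ± 0.082), rank 31 from the highest. This is the member whose control signal lay farthest above the detection edge, by 240.0 units, and its ratio had the narrowest range over the alternatives among the 3 genes detected on both arrays. The authors' deposited table, with 299 and 833, gives 2.79-fold. The ratio was under 2-fold with signals as deposited, at 1.81-fold (0.85), and with median scaling (0.90). Of smooth muscle markers, Acta2 was at 1364.6 in control and 358.4 with FGF2, and Cnn1 was not detected. Whether smooth muscle cells had a part in the Ptgis signal was not tested.

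Hpgd encodes 15-hydroxyprostaglandin dehydrogenase, which inactivates prostaglandin E2 and other prostaglandins by oxidising their 15-hydroxyl group. It was the 1 member of the 5 that was lower with FGF2. Its signal was 313.3 ± 10.5 in control and 128.9 ± 5.7 with FGF2, where its detection score was 0.486 and the probe was not well above background. Against the floor of the FGF2 array it was at least 1.54-fold lower (log2 ratio of at most −0.62 ± 0.080). The error of this bound likewise includes the bead SD of the FGF2 signal, which the floor replaced. The FGF2 signal was below the authors' background of 132.6 for that array, so the size of the reduction beyond the bound is not measured.

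**Figure D1:**
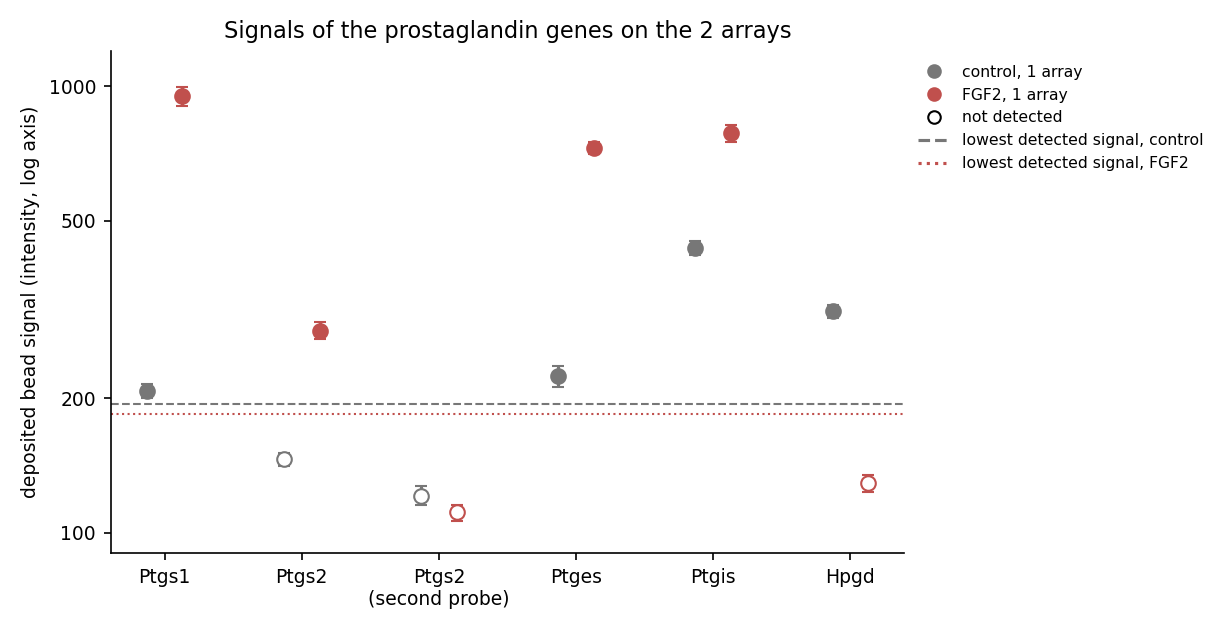
Deposited bead signal (intensity, log axis) of each probe of the 5 genes on the control array (grey) and the FGF2 array (red), with bars for the bead SD, open circles for probes that were not detected, and lines at the lowest detected signal of each array. Ptgs1 and Ptges start just above the control line at 207.7 and 224.2 and reach 949.8 and 726.6, Ptgis is well above it on both arrays, and Ptgs2 and Hpgd cross the line in opposite directions.

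Counted by size, 3 of the 5 genes had at least a 2-fold higher signal with FGF2 and 0 at least a 2-fold lower one, where 1.46% of the 3007 detected named genes were that much higher and 2.59% that much lower. At 1.5-fold, 4 were higher and 1 was lower, against 5.29% and 6.78% of all. The genes were picked with this contrast in view, so nothing is read from these counts, and Ptgs2 and Hpgd, each detected on 1 array only, could differ only in the direction they did. The detection score sets the edge: the control scores of Ptgs1 (0.998) and Ptges (0.999) were the nearest inside 0.99, and those of Ptgs2 in control (0.758) and Hpgd with FGF2 (0.486) the nearest outside. The median log2 ratio of all detected named genes was 0.028.

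**Figure D2:**
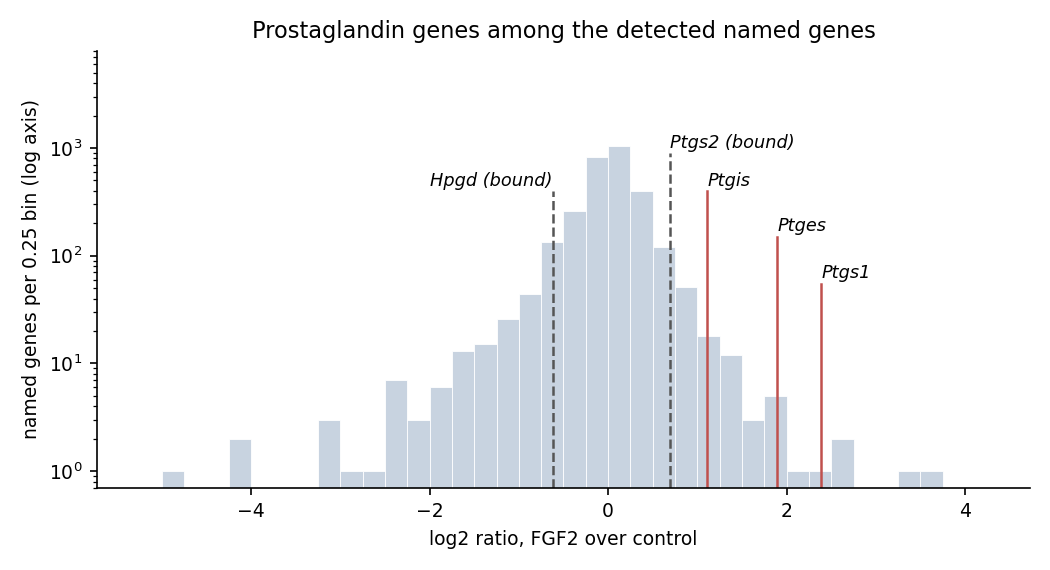
Number of detected named genes (log axis) per bin of the log2 ratio of FGF2 over control, with the 5 genes as vertical lines. Solid lines mark ratios measured on both arrays (Ptgis 1.11, Ptges 1.90, Ptgs1 2.39) and dashed lines mark bounds (Ptgs2 0.69, Hpgd −0.62), and most genes lie near 0.

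The bead SD of a member was between 3.22% and 5.22% of its signal on each array. For each of the 5 detected probes the difference between arrays exceeded its own bead error. It was 742.1 ± 47.9 signal units for Ptgs1, 502.4 ± 26.2 for Ptges, 350.0 ± 37.6 for Ptgis, 137.7 ± 13.1 for the brighter Ptgs2 probe and −184.4 ± 11.9 for Hpgd. These errors cover the beads of 1 array and leave out variation between cultures. The genes were chosen with these differences known, so nothing is read from their being larger than the bead error.

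Since Ptgs1 and Ptges were dim in control, other dim genes give a setting for their ratios. Of 572 named genes detected in control with a signal under 250, a limit chosen after the values were seen, 7 (1.22%) had a signal at least 2-fold higher with FGF2, and their median log2 ratio was 0.012. Ptgs1 and Ptges are among these 7, with Arrdc4, Gzme, Klf5, Smox and Socs2. Since Ptgs1 and Ptges were chosen with their ratios known, nothing is read from their place among the 7.

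All directions were kept when the signals were treated in another way. Under 11 alternatives Ptgs1 lay between 2.19 and 3.85 on the log2 scale, Ptges between 1.70 and 3.10, Ptgis between 0.85 and 1.48, Ptgs2 between 0.36 and 1.71, and Hpgd between −1.77 and −0.62. Ptgs1 and Ptges were at least 2-fold higher under each of them and Ptgis under 9. The alternatives of detection score, of neither floor nor filter and of probe choice could not change these 3 genes, which repeated their main ratios. With a floor, the directions of Ptgs2 and Hpgd were largely set by which array detected them. For Ptgs2 and Hpgd, whose dim side was not measured, the value moves with the floor: Ptgs2 reached 2-fold under 3 alternatives and Hpgd under 4.

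**Figure D3:**
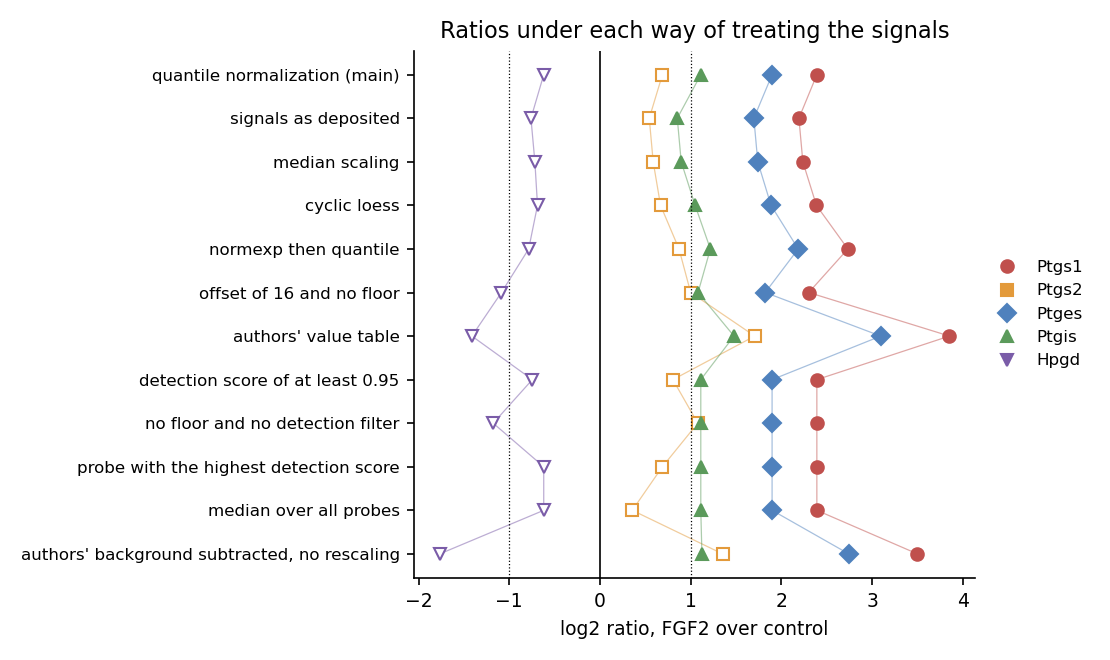
The log2 ratio of FGF2 over control of each gene under quantile normalization and 11 alternatives, with open symbols for genes detected on 1 array only and dotted lines at 2-fold. Every point of Ptgs1, Ptges, Ptgis and Ptgs2 is right of 0 and every point of Hpgd left of it. Ptgs1 and Ptges reach 3.85 and 3.10 with the authors' values, which are background-subtracted and rescaled, and Hpgd reaches −1.77 with subtraction alone.

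The genes with the nearest ratios were sought among 2616 other named genes detected on both arrays, by the absolute difference of log2 ratios over the 2 arrays. For Ptgs1 these were Ccnd1 (cyclin D1), at 2.23 ± 0.056, and Gzme (granzyme E), at 2.66 ± 0.10. Ptges lay beside Spp1 (osteopontin), at 1.93, and Sat1, an acetyltransferase of polyamines, at 1.86. Ptgis lay beside Arrdc4, an arrestin-domain protein, at 1.10, and Rin1, a Ras effector, at 1.14. The bound of Ptgs2 lay beside the ratios of Asph and Net1 (both 0.69), and that of Hpgd beside Bfar and Tceal9 (both −0.62). A ratio over 2 arrays is a single number, and for the bounds the likeness is to the bound only.

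The place in the genome was also compared. Ptgs1, Ptges and Ptgis are on chromosome 2, Ptgs2 is on chromosome 1 and Hpgd on chromosome 8 (RefSeq, GRCm38.p6). Of the 40 protein-coding genes that are the nearest 4 on each side of the 5 genes, 15 have a named probe and 7 were detected. The 7 lie beside Ptgs2, Ptges and Ptgis, since no neighbour of Hpgd has a named probe and none of Ptgs1 was detected. None of the 7 differed 1.5-fold after quantile normalization, with log2 ratios between −0.40 (Znfx1, beside Ptgis) and 0.41 (Prg4, beside Ptgs2). With signals as deposited Znfx1 was 1.55-fold lower. Pla2g4a, the gene of the cytosolic phospholipase that releases arachidonic acid, is the direct neighbour of Ptgs2 but has no named probe.

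The rest of the pathway was described from 9 lists with 154 genes besides the 5. Named probes cover 58 of these, and 26 were detected. None of the 26 was at least 2-fold higher and 3 were at least 2-fold lower, where 1.46% and 2.59% of all detected named genes were. At 1.5-fold, 3 were higher and 4 lower, where 5.29% and 6.78% of all detected named genes were. In the authors' deposited table, Acsl4 (2.61-fold), Pde4d (2.57-fold) and, as a bound, Nr4a2 (log2 ratio of 1.28) were also past 2-fold higher, and Celf2 (3.01-fold) and, as a bound, Cyp4a12a (−1.19) past 2-fold lower. The median log2 ratio of the 26 was 0.0041, close to the 0.028 of all detected named genes.

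Upstream of the cyclooxygenases, none of the 4 detected genes of arachidonic acid release differed 1.5-fold after quantile normalization (median 0.10). Daglb, a diacylglycerol lipase, was at 0.49 ± 0.061, with signals of 346.9 and 414.4, but 1.70-fold higher in the authors' deposited table. Anxa1, whose protein annexin A1 is known to restrain phospholipase A2, was at −0.31 ± 0.071, but at −0.61 with background subtracted and no rescaling. Plaa, named for activating phospholipase A2, was at 0.13 and the secreted phospholipase gene Pla2g12a at 0.076, with signs that turned with signals as deposited (−0.13 and −0.12). Pla2g1b, Pla2g4e and Pla2g5 were not well above background.

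Of 2 detected genes that handle free arachidonate, Acsl4, an acyl-CoA ligase that prefers arachidonic acid, was 1.97-fold higher (0.98 ± 0.070) on its brighter probe, with signals of 391.7 and 655.5. Its dimmer probe gave 0.45 ± 0.080, with 201.5 and 247.9. Both probes were thus higher with FGF2, by different amounts. Fads2, a desaturase on the way to arachidonic acid, was at −0.025.

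Besides Ptges and Ptgis, 4 genes of the list of synthases were detected, and none of them was higher by 1.5-fold. Ptges3, which encodes the cochaperone p23 that also acts as cytosolic prostaglandin E synthase, was at 0.20 ± 0.061, with 601.9 and 582.7. Akr1b3, an aldose reductase with prostaglandin F synthase activity in the mouse, was at 0.22 ± 0.072, with 2567 and 2583.7. Prxl2b, a prostamide and prostaglandin F synthase, was at 0.028. The ratios of Ptges3 and Prxl2b changed sign with signals as deposited, to −0.047 and −0.17.

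The fourth, Gstm2, a glutathione transferase for whose human counterpart prostaglandin E synthase activity has been described, was lower with FGF2 on both probes. Its brighter probe gave 3363.9 in control and 920.3 with FGF2, 3.09-fold lower (−1.63 ± 0.061), and the dimmer probe 766.8 and 266.9, 2.48-fold lower (−1.31 ± 0.067). It was the largest difference among the synthases other than Ptges and stayed over 2-fold under all 11 alternatives. Mu-class transferases are close copies of each other, and whether these probes also bind transcripts of its relatives was not tested. Gstm3 was not well above background.

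In breakdown and transport, 2 genes besides Hpgd were detected. Ptgr2, which reduces the 15-keto products of Hpgd, was at −0.040 ± 0.070, with 257.0 and 223.5, a difference within its bead error, while signals as deposited gave −0.20. Slco3a1, an organic anion transporter whose human counterpart carries prostaglandins, was 1.51-fold higher on one probe (0.59 ± 0.074, 342.5 and 443.9) and 1.54-fold on the other (0.63 ± 0.077, 329.2 and 437.8). With signals as deposited it was at 0.37.

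Of the receptors, only Ptger1 and Ptger4, receptors for prostaglandin E2, have a named probe, and neither was detected by the 0.99 rule. Ptger4 came near, with signals of 182.9 and 170.5 and scores of 0.972 and 0.949. Of their G proteins, Gnas, the stimulatory alpha subunit, was at −0.36 ± 0.11 (1329 and 858.2) and Gnaq at −0.0047. With signals as deposited Gnas was at −0.63 and Gnaq at −0.21. Among 4 detected genes known to respond to cAMP, the second messenger of several of these receptors, Sgk1, a kinase also induced by glucocorticoids and serum, was 2.64-fold lower (−1.40 ± 0.052, 2056 and 652.4). Pde4d, a phosphodiesterase that degrades cAMP, was 1.66-fold higher (0.73 ± 0.068) on the brighter of its 2 probes, and the dimmer one was not well above background. Nr4a2, a nuclear receptor, was at least 1.39-fold higher, and Fosl2 was at 0.16 (−0.092 with signals as deposited). The median of these 4 was 0.32, and they lay on both sides of 0.

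Among 5 detected genes that act on Ptgs2 transcription or mRNA, Celf2, an RNA-binding protein known to hold back translation of Ptgs2 mRNA, was 1.87-fold lower (−0.91 ± 0.086, 476.7 and 221.2) and 1.72-fold lower on its dimmer probe (−0.78 ± 0.077). Zfp36l1, which promotes decay of mRNAs with AU-rich elements, was at −0.50 ± 0.080 (2312 and 1372). It was at −0.75 with signals as deposited, and its dimmer probe was at −0.20. Elavl1, which stabilises mRNAs with AU-rich elements, was at 0.065, and Cebpb, a transcription factor that binds the Ptgs2 promoter, at −0.069. The signs of these last 2 depended on scaling, with −0.14 for Elavl1 as deposited and 0.17 for Cebpb in the authors' deposited table. Nfatc1 was detected in control only, at least 1.30-fold lower. The median of the 5 was −0.38.

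In the neighbouring branches of arachidonate metabolism, none of the 3 lipoxygenase and leukotriene genes with a named probe (Dpep2, Ggt5 and Ltb4r2) was detected. Of 10 epoxygenase-branch genes with a named probe 3 were detected. Cyp1b1, a cytochrome P450 that oxidises arachidonate and steroids, was at −2.43 ± 0.073, with 4083 and 660.0. Cyp4a12a and Cyp2j9 were detected in control only, Cyp4a12a at least 1.41-fold lower and Cyp2j9 too near the floor for a fold.

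**Figure D4:**
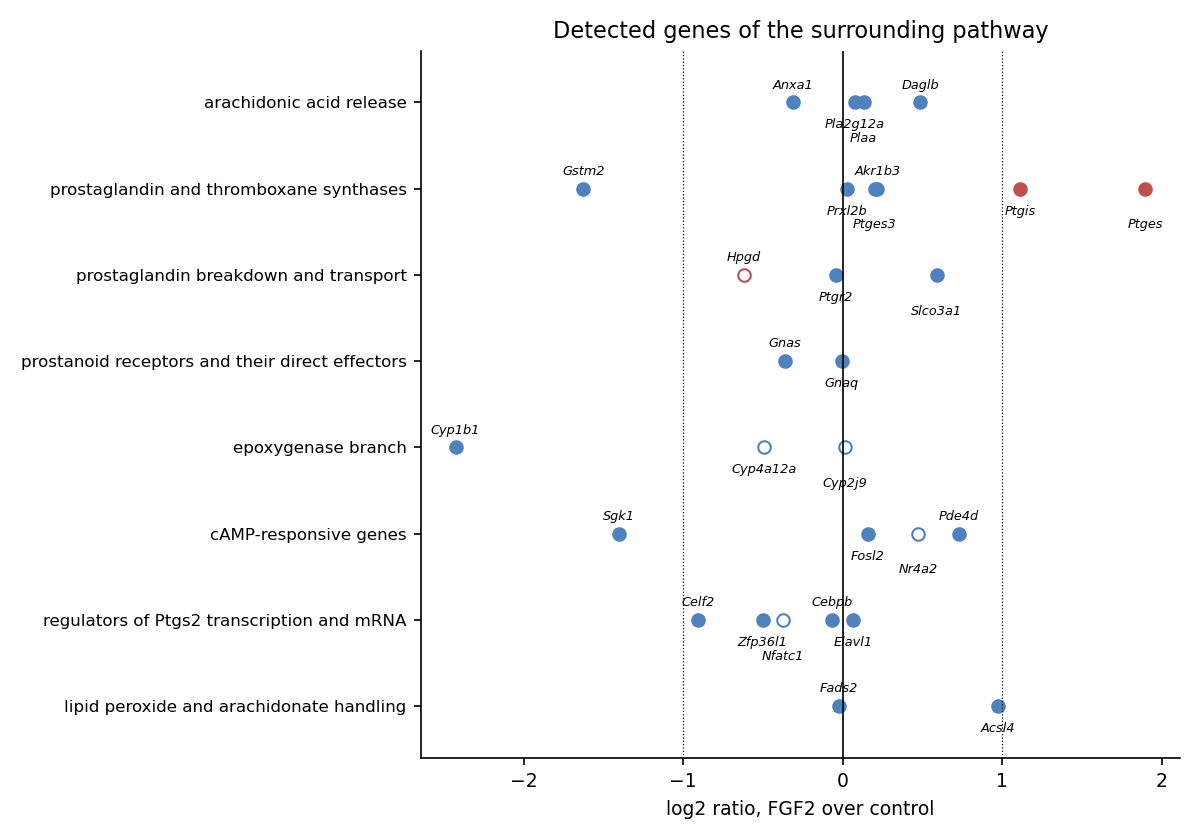
Log2 ratio of FGF2 over control for the detected genes of the pathway lists, with Ptges, Ptgis and Hpgd in red, other genes in blue, open circles for bounds and dotted lines at 2-fold. Ptges (1.90) and Ptgis (1.11) are the 2 points right of the upper line, and Cyp1b1 (−2.43), Gstm2 (−1.63) and Sgk1 (−1.40) lie left of the lower one.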

How the data were processed

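Per the file headers, the authors' deposited array tables give for each probe a mean bead signal (an intensity), its bead SD in that unit and a detection score from 0 to 1. They came from BeadStudio version 1.0, per the submitters' processing notes; its normalization is not stated there. The authors' deposited value table holds a second intensity: the control signal less 135.4, and the FGF2 signal with 132.6 subtracted, then multiplied by 1.28.

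Identifiers with scl0 or scl00 before a number were read as NCBI gene numbers (RefSeq, GRCm38.p6). Of 9523 such numbers 93.3% were listed, against 36.1% after adding 50. This named 8893 of 24044 probes.

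Signals were quantile normalized (limma 3.58.1, R 4.3.3), floored at the lowest normalized signal of detected probes (188.45 in control, 191.7 with FGF2) and put on the log2 scale. The brightest probe stood for a gene. A probe detected on 1 array gives a bound. Errors marked ± are combined bead errors, without variation between cultures. With 1 array a group no test was possible, and precision is limited by the number of arrays. The code was tested on simulated data, with changes only in probes whose control signal was well above the detection edge. Bounds and dim control signals were not covered by it.

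The 5 genes are named with every probe. Detected genes of 9 pathway lists are named with values if at least 1.5-fold apart, or among the 4 brightest others. For each of the 5 genes the 2 outside genes of nearest ratio are named. Genes and lists were chosen with earlier results of these data known. Other scalings, background treatments, thresholds and probe choices were tried.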

Additional observations from a re-analysis of the deposited data

How the results depend on the processing

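The directions of Ptgs1, Ptgs2, Ptges, Ptgis and Hpgd were kept under all 11 alternatives, 1 of which (the authors' background subtracted without rescaling) was chosen after seeing the data. Those of detection score, of neither floor nor filter and of probe choice could not change Ptgs1, Ptges or Ptgis, whose ratios were repeated. With a floor, the directions of Ptgs2 and Hpgd were largely set by which array detected them. All 5 genes were chosen with their directions known. Where a value moved by more than the bead error, it was as follows, in log2. For Ptgs1, Ptgs2, Ptges, Ptgis and Hpgd in turn, signals as deposited gave 2.19, 0.54, 1.70, 0.85 and −0.76, and median scaling 2.24, 0.59, 1.74, 0.90 and −0.72. Normexp gave 2.73, 0.87, 2.19, 1.22 and −0.79, and the authors' table, which subtracts background and rescales, 3.85, 1.71, 3.10, 1.48 and −1.41. That table has no Ptgs2 value in control and no Hpgd value with FGF2, so 1.71 and −1.41 are bounds computed here against the lowest value of the empty side's column. Subtraction without rescaling gave 3.50, 1.35 and 2.74 for Ptgs1, Ptgs2 and Ptges and −1.77 for Hpgd. Ptgs2 and Hpgd also moved to 0.9998 and −1.09 with an offset of 16 and no floor, to 0.80 and −0.75 with a detection score of at least 0.95, and to 1.08 and −1.18 with neither floor nor filter. The median over both probes gave 0.36 for Ptgs2. The number of the 5 genes at least 2-fold lower went from 0 to 1 with the offset, with the authors' table, with neither floor nor filter, with subtraction, and at 1.5-fold. Named genes at least 2-fold higher numbered 44, against 28 as deposited, 29 with median scaling, 138 in the authors' table and 67 with subtraction. Those at least 2-fold lower numbered 78, against 158 in the authors' table and 295 with subtraction, 113 as deposited and 107 with median scaling. The median log2 ratio of all detected named genes was −0.14 as deposited, 0.12 in the authors' values and −0.24 with subtraction, so ratios there are read relative to it. Of 198 pathway list counts under alternatives, 180 stayed within 1.5 times and 18 moved, each to 1 or 2 genes. No paired analysis was possible because each group has 1 array. For the same reason no array could be left out.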
